A study of Rattus norvegicus with 12 samples.

Results

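The Toll-like receptors and the proteins that work beside them were examined in the cells of rat bronchoalveolar lavage fluid (BALF), the fluid washed out of the airspaces of the lung. They were 8 genes: the receptors Tlr1, Tlr2, Tlr4, Tlr7 and Tlr8, the co-receptors Cd14 and Ly96, and the adaptor Myd88. Each was read from the probe sets of the array that name it and no other gene, and each of the 8 had exactly 1 such probe set, of 14217 genes named in this way. None of the 8 other Toll-like receptors looked for (Tlr3, Tlr5, Tlr6 and Tlr9 to Tlr13) was named alone by a probe set, and they were not analysed here.

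The study compared 4 groups of 8-week-old male Sprague-Dawley rats to ask how hypoxia and lipopolysaccharide (LPS, the cell wall component of Gram-negative bacteria) act together in acute lung injury. COMB rats were injected with LPS and then kept in a decompression chamber, LPS rats had the injection at normal air pressure, HPO rats had the chamber, and CTL rats had a saline injection at normal air pressure. The LPS dose was 0.5 mg/kg into the tail vein and the chamber held the pressure of 5000 m altitude for 6 h, and no injection is described for the HPO rats. All 4 groups went without food and water during the experiment. Each of the 12 arrays (3 per group) carried pooled RNA. The labels name 3 rats for each pool, except the COMB pools of rats 2 and 3 and of rats 10 and 11, which name 2 each. The paper describes 3 animals for every pool. The labels were followed here, and the difference between them and the paper is unresolved. The pools of a group came from different rats, so the p-values below measure the spread between pools of animals and not between single animals. The values were probe set intensities in array units, and the medians of the 12 arrays lay between 32.72 and 35.61.

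Toll-like receptors are membrane proteins that recognise conserved parts of microbes. TLR4 senses LPS at the cell surface, where LPS-binding protein hands LPS to CD14, which passes it to the complex of TLR4 with MD-2, the product of Ly96. TLR2 senses bacterial lipoproteins, often paired with TLR1 or TLR6, whereas TLR7 and TLR8 lie in endosomes and sense single-stranded RNA. All of these receptors can signal through MyD88, which leads to activation of NF-κB and to inflammatory cytokine genes. In the airspaces the alveolar macrophage is the main resident cell that carries them, and neutrophils and monocytes that enter an inflamed lung carry several of them as well.

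The lavage held markers of alveolar macrophages at high levels in all groups, with markers of other cells beside them. Genes with an adjusted p under 0.05 (limma with Benjamini-Hochberg adjustment over 25692 probe sets) are said to be called, and in COMB against CTL 8.84% of all probe sets were called higher and 10.2% lower. The summed intensity of 6 macrophage genes was 12133 to 13372 in COMB pools, 14723 to 15988 in LPS pools, 13888 to 15077 in HPO pools and 12845 to 14020 in CTL pools. Most of this sum came from Cd68 and Mrc1, which averaged 4110.2 and 6351 in COMB pools against 3882 and 6156 in CTL pools and were not called. Of the other 4, Pparg and Krt79 were called lower in COMB against CTL (-1.47 and -0.55 on the log2 scale), Car4 was called higher (3.18) and Fabp4 was not called (-0.54). Neutrophil genes (8 of 12 on the array) summed to 6142 to 9623 in COMB pools, 4269 to 5154 in LPS pools, 3180 to 4016 in HPO pools and 4133 to 6132 in CTL pools. In COMB against CTL, S100a8 and S100a9 were called higher (3.00 and 4.43), Cxcr1 and Camp lower (-0.69 and -0.92), and the other 4 were not called. Of these 4, Fcgr3a took a large part of the sum, with means of 2636 in COMB pools and 2883 in CTL pools. Genes of recruited monocytes (6 of 8) summed to 1715 to 3273 in COMB pools, 634 to 1210.2 in LPS pools, 356 to 469 in HPO pools and 216 to 1797 in CTL pools. Among them Vcan and Itgam were called higher in COMB against CTL (1.65 and 2.01). Plac8 and Cx3cr1 were not called, and Ccr2 and F13a1 were too low to be tested. Epithelial genes (9 of 9) summed to 11830.3 to 15017 in COMB pools, 9566 to 9939.8 in LPS pools, 8599 to 10434 in HPO pools and 4743 to 7219.7 in CTL pools. Genes of T and NK cells (7 of 7) summed to 778 to 4668 in COMB pools, 263 to 545 in LPS pools, 534 to 601 in HPO pools and 292 to 1309.8 in CTL pools, and 6 of the 7 were called higher in COMB against LPS (6.64% of all probe sets were) and 2 in COMB against CTL. B cell genes (2 of 5) summed to 46.4 to 401 in COMB pools, 47.2 to 60.9 in LPS pools, 40.8 to 56.7 in HPO pools and 45.6 to 203 in CTL pools. Dendritic cell genes (4 of 7) had median sums of 932 in COMB, 796 in LPS, 1008 in HPO and 1002 in CTL pools. Genes of endothelium and fibroblasts (3 of 4) had 172, 159.8, 176 and 131 in that order. Those of erythrocytes and platelets (4 of 5) had 11773, 9197, 9755 and 5778. Apart from the macrophage, dendritic cell, and endothelium and fibroblast sums, the median of each of these sums was highest in COMB. The part of these cells in the results below was not tested. In RNA from mixed cells, fewer cells of a type and less RNA per cell cannot be told apart.

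**Figure D1:**
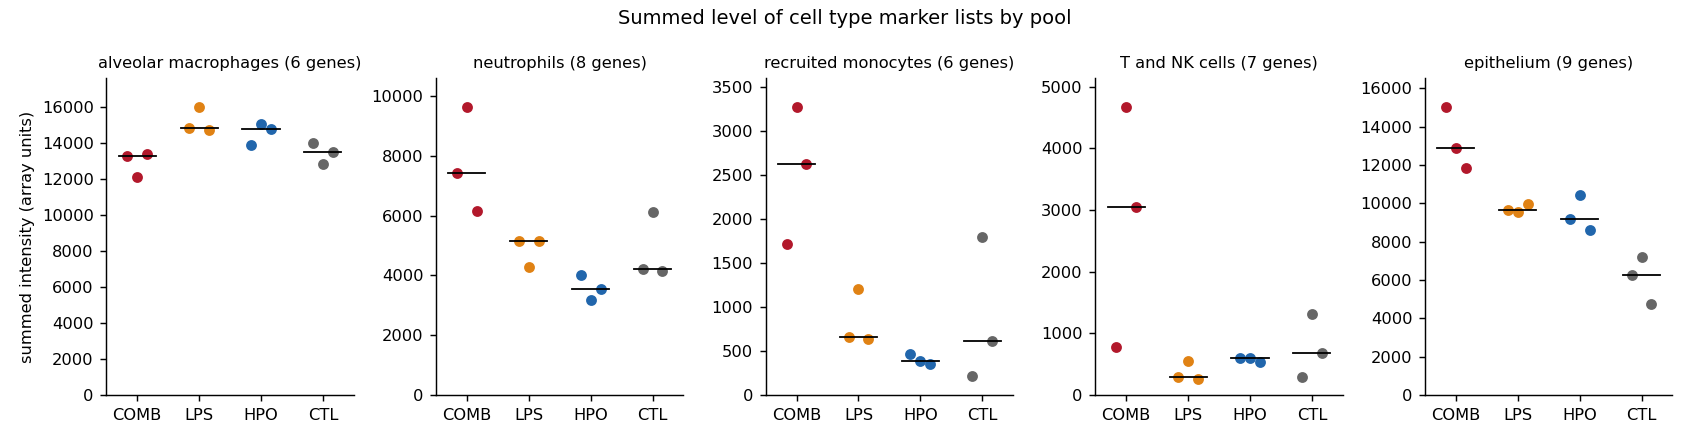
Summed intensity (array units, y axis from 0) of 5 marker lists in each pool of COMB, LPS, HPO and CTL; each point is 1 pool and the line is the median of the 3 pools. Macrophage sums lay between 12133 and 15988 in all 12 pools, whereas the COMB pools were highest for epithelium, at 11830.3 to 15017.

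One CTL pool stood apart from the other CTL pools. In the CTL pool of rats 5, 6 and 7, S100a9, a calcium-binding protein abundant in neutrophils, had an intensity of 2011, against 20.6 and 60.2 in the other CTL pools, and its neutrophil and monocyte sums were the highest of the group, at 6132 and 1797. The erythrocyte and platelet sum of that pool was 11891, against 2541 and 5778 in the other CTL pools. The sum of that pool over 7 T and NK cell genes was 1309.8, against 292 to 686 in the other CTL pools. Among COMB pools the same sum was 4668 in the pool of rats 10 and 11 and 778 in the pool of rats 2 and 3. For the Toll-like receptors, Cd14, Ly96 and Myd88, results that change when a pool named here is left out are given with and without it. Results for the marker genes and for the pathway genes around the receptors are given with all pools only.

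Of the 8 genes, 7 were above the median of their own array on every array, and Tlr1 was not. To show what a probe set without its transcript reads, 17 genes of other organs (such as lens crystallin or sperm protamine) were taken; their median intensity was 14.5, their 90th percentile 27.1 and their highest value 82.4, from the insulin gene Ins1. The 20th percentile of an array lay between 10.13 and 11.25. Tlr2 stood at percentiles 61.8 to 88.2 of its array, Tlr4 at 86.6 to 92.7, Tlr7 at 86.4 to 91.1 and Tlr8 at 89.1 to 97.4. Cd14 stood at percentiles 84.7 to 99.1, Ly96 at 95.6 to 96.6 and Myd88 at 95.3 to 97. Tlr1 exceeded the 20th percentile on 5 of 12 arrays and the median on 2 of them. Levels of different genes are not set against each other here, because each probe set binds with its own strength.

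**Figure D2:**
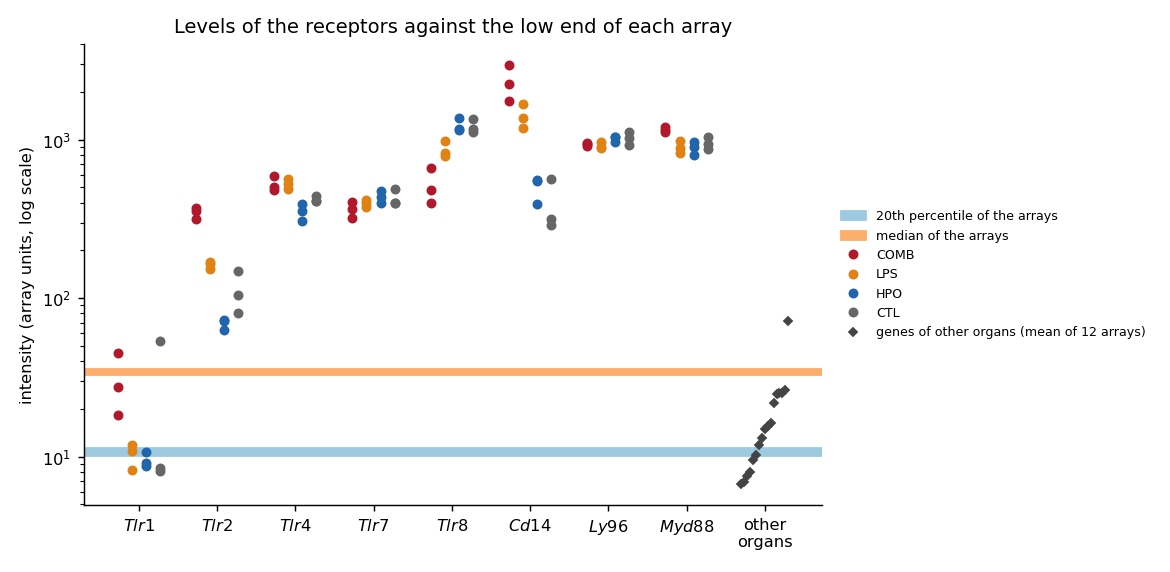
Intensity (array units, log scale) of the 8 genes in each pool of COMB, LPS, HPO and CTL, with 17 genes of other organs as means over 12 arrays at the right. The blue band is the 20th percentile of the arrays (10.13 to 11.25) and the orange band their median (32.72 to 35.61); Tlr1 lies at or under the blue band in 7 of 12 pools, and every other gene lies above the orange band in all pools.

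The receptors did not move in one direction. In COMB against CTL, Tlr2 and Cd14 were called higher and Tlr8 was called lower, and Tlr1, Tlr4, Tlr7, Ly96 and Myd88 were not called. The 2 of 8 genes called higher stand beside 8.84% of all probe sets, and the 1 called lower beside 10.2%. In LPS against CTL only Cd14 was called, higher, where 0.868% of probe sets were called higher and 1.18% lower. In HPO against CTL none of the 8 genes was called and 0.035% of probe sets were; at an unadjusted p under 0.05, limma gave 2 of the 8 genes, Tlr2 and Tlr4, both lower, where 9.71% of probe sets passed it, and the methods' t-test gave 0.

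Tlr2, Tlr8 and Myd88 were called between both exposures and LPS alone, and the calls of Tlr8 and Myd88 depended on single pools, as given below. In COMB against LPS, Tlr2 and Myd88 were called higher (6.64% of probe sets were) and Tlr8 was called lower (5.27% were). In COMB against HPO, Tlr2, Tlr4, Cd14 and Myd88 were called higher (6.83% of probe sets) and Tlr8 lower (8.75%). The interaction, which asks whether the effect of both exposures differs from the sum of their separate effects on the log2 scale, was called for Tlr2 alone among the 8 genes, and for 0.136% of probe sets. COMB was compared with each of the other groups, so these comparisons share pools and are given side by side.

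**Figure D3:**
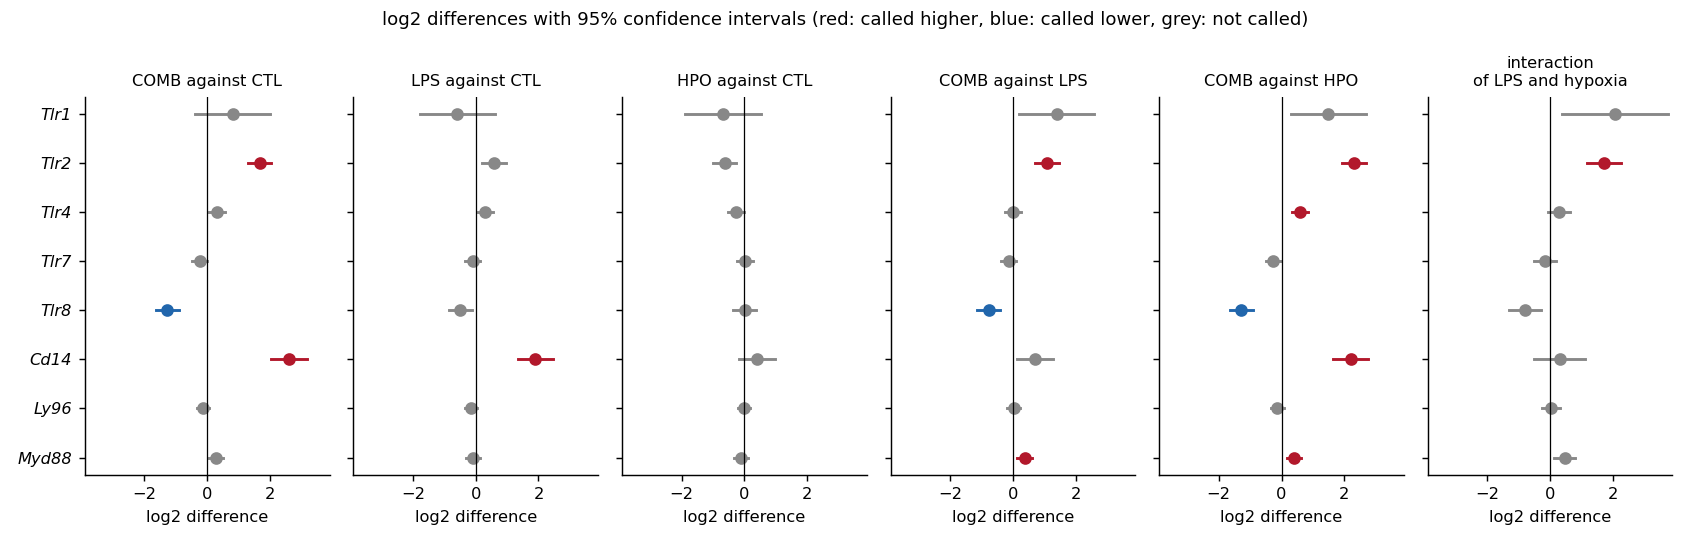
Differences in log2(intensity + 1) with 95% confidence intervals (x axis) for the 8 genes in each of 5 comparisons and for the interaction; red and blue mark called values, higher and lower, and grey marks values not called. Cd14 and Tlr2 lie to the right in COMB against CTL, at 2.60 and 1.67, and Tlr8 to the left, at -1.27.

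The start regions of the 3 genes that moved most in COMB are shown so that the letters can be set beside these directions. RefSeq promoters on the build GRCr8 (250 bases before to 50 after the annotated start) matched 7 of the 8 genes, and the build behind the array's own annotation is not given in the sources used here. Capitals mark matches, on either strand, to 6 motifs: the NF-κB motif, the hypoxia response element cores ACGTG and GCGTG, the PU.1 core GAGGAA, the AP-1 motif TGANTCA and the TATA box TATAAA. PU.1 is a transcription factor of the myeloid lineage. The regions were chr2:171504508-171504807 (minus strand) for Tlr2, chr18:28611109-28611408 (minus strand) for Cd14 and chrX:30708476-30708775 (plus strand) for Tlr8.
Tlr2: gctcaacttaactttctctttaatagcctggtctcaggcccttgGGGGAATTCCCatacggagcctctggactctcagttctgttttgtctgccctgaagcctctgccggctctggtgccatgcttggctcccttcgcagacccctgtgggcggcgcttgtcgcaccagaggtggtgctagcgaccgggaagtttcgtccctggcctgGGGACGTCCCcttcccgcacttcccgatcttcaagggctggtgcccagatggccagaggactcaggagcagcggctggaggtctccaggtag
Tlr8: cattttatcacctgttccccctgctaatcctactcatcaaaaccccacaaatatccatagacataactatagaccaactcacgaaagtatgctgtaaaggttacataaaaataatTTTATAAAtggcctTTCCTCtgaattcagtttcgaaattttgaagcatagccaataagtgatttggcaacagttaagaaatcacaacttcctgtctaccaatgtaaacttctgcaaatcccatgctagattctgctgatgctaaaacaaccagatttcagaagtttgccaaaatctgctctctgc
Cd14: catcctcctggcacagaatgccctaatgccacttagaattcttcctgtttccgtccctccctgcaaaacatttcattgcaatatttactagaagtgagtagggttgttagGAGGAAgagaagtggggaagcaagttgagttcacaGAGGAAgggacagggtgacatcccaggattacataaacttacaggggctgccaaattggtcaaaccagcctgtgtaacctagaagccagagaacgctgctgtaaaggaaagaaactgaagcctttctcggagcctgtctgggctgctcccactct

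The Tlr2 window held 2 separate stretches that match the NF-κB motif, and none of the other 6 windows held one; 7.51% of 33469 promoters of the same length did. The PU.1 core was found in 4 of the 7 windows, at 2 places each in Cd14 and Tlr4 and at 1 each in Tlr7 and Tlr8, and 27.6% of promoters held it. Letters that match the TATA box motif were found in the Tlr8 window, in overlapping matches on both strands that begin at -135 and -133 from the annotated start. The Tlr1 window held a match that begins at -229, and 14.2% of promoters held the motif. Neither hypoxia core was present in the windows of Tlr2, Cd14 or Tlr8 (19.3% of promoters held ACGTG and 29.7% GCGTG), and the AP-1 motif was absent from all 3 (7.33%). Of the 7 windows only that of Myd88 held a hypoxia core, GCGTG at 2 places, and it alone held the AP-1 motif, at 1 place. A match is a run of letters and not a measured site.

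Tlr4, the receptor of LPS, was called in 1 comparison, COMB against HPO, where it was higher. Its intensity was 500.2, 482 and 594 in COMB pools, 563, 523 and 487 in LPS pools, 391, 308 and 353 in HPO pools and 413, 409.6 and 443 in CTL pools. All COMB and LPS pools lay above all CTL pools, all HPO pools lay below them, and COMB and LPS pools overlapped. The log2 difference was 0.31 in COMB against CTL (SE 0.114, adjusted p = 0.0787) and also 0.31 in LPS against CTL (adjusted p = 0.213). In HPO against CTL it was -0.27 (adjusted p = 0.468).

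For Tlr4 the log2 difference of COMB from LPS was 0.00, with a 95% interval of -0.25 to 0.25 (adjusted p = 0.999), and the interaction was 0.27 (interval -0.08 to 0.62, adjusted p = 0.54). COMB exceeded HPO by 0.58 (SE 0.114, adjusted p = 0.00534), or 1.50-fold. When each array was scaled to its beta-actin controls, the difference of COMB from CTL was 0.48 and was called (adjusted p = 0.0129). The same scaling moved the median of all probe sets in COMB against CTL from -0.04 to 0.12.

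Cd14, the surface protein that passes LPS to TLR4, had the largest fold of the 8 genes in COMB against CTL and was the only one of them called in LPS against CTL. Its intensity was 1749.5, 2243 and 2963 in COMB pools, 1375, 1675 and 1177 in LPS pools, 553, 547 and 393 in HPO pools and 289.8, 564 and 314 in CTL pools. The COMB and LPS pools did not overlap with each other or with the rest, and the HPO pools overlapped with the CTL pools. The highest CTL value, 564, came from the pool of rats 5, 6 and 7. The log2 difference from CTL was 2.60 in COMB (SE 0.261, adjusted p = 6.81e-05) and 1.90 in LPS (SE 0.261, adjusted p = 0.00538).

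The added effect of hypoxia on Cd14 was not called. COMB exceeded LPS by 0.70 on the log2 scale (interval 0.13 to 1.27, adjusted p = 0.104), HPO exceeded CTL by 0.40 (interval -0.17 to 0.97, adjusted p = 0.714) and the interaction was 0.30 (interval -0.51 to 1.10, adjusted p = 0.808). On the linear scale the mean of COMB was 2319, where the changes of LPS and HPO from CTL added up to 1517; on the log2 scale the geometric mean of COMB was 2266, where the sum gave 1843. The calls in COMB against CTL and in LPS against CTL held without any 1 pool.

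Ly96, which encodes the MD-2 subunit that binds LPS, was called in no comparison. It had 907, 934 and 948 in COMB pools, 883, 905 and 973 in LPS pools, 1037, 1042 and 966 in HPO pools and 1114, 931 and 1022 in CTL pools. The COMB pools lay below the HPO pools, and every other pair of groups overlapped. The log2 difference of COMB from CTL was -0.13 (interval -0.33 to 0.06, adjusted p = 0.349), and those of LPS and HPO from CTL were -0.15 and -0.01, neither called.

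Tlr2, the receptor of bacterial lipoproteins, was the only one of the 8 genes whose interaction was called. Its intensity was 315, 369 and 354 in COMB pools, 170.3, 164 and 153 in LPS pools, 72.1, 62.8 and 72.9 in HPO pools and 104, 148 and 80.6 in CTL pools. No pool of one group overlapped with those of another, in the order COMB, LPS, CTL and HPO. Within COMB the SD was 28.0 around a mean of 346 and within LPS it was 8.66 around 162, whereas in CTL it was 34.1 around 111 (n = 3 pools each).

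Tlr2 was called higher in COMB than in LPS, whereas the HPO pools lay below the CTL pools without a call. The log2 difference of COMB from LPS was 1.08 (SE 0.174, adjusted p = 0.00285), or 2.12-fold, and that of HPO from CTL was -0.63 (SE 0.174, adjusted p = 0.225), which was not called although all 3 HPO pools were below all 3 CTL pools. The interaction was 1.72 (SE 0.246, interval 1.18 to 2.25, adjusted p = 0.0261). Counted in intensity, LPS added 51.4 to the mean of CTL and hypoxia took away 41.7, while both together added 235, so that COMB had 346 where the sum would give 121.

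The call of the Tlr2 interaction depended on several single pools, and its size moved little. Without 1 pool the interaction lay between 1.49 and 1.92, and the adjusted p passed 0.05 when 1 of these pools was left out: the COMB pool of rats 10 and 11 (0.0687), 2 HPO pools (0.0673 for rats 7, 8 and 9, and 0.0895 for rats 2, 4 and 11) or any LPS pool (0.0714 to 0.0953). With arrays scaled to beta-actin it was 1.65 (adjusted p = 0.0605). In COMB against CTL, Tlr2 was higher by 1.67 (SE 0.174, adjusted p = 8.84e-05), and this call held without any 1 pool. In LPS against CTL the difference was 0.59 (adjusted p = 0.116), and without the CTL pool of rats 5, 6 and 7 it was 0.82 and was called (adjusted p = 0.0152).

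Tlr1, a partner of TLR2, was near the low end of the arrays in most pools. Its intensity was 18.4, 45.2 and 27.6 in COMB pools, 10.8, 11.9 and 8.20 in LPS pools, 10.7, 8.76 and 9.13 in HPO pools and 8.08, 53.9 and 8.49 in CTL pools. All 3 COMB pools lay above all LPS and HPO pools, and the CTL pool of rats 5, 6 and 7 lay above every other pool. That pool also had the highest neutrophil, monocyte and T and NK cell sums of the CTL group. The COMB pool of rats 10 and 11, next highest for Tlr1, had the highest value of each of these sums among all 12 pools. Its monocyte sum of 3273 was mostly Plac8 (2803). Itgam was highest of all pools there, at 200.2, and Vcan, at 209, lay below all LPS pools (319 to 728). The part of these cells in the Tlr1 values was not tested. The COMB value of 18.4 lay below the 90th percentile of the genes of other organs, 27.1, and that of 27.6 lay close to it.

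None of the comparisons of Tlr1 was called in the fit of all 4 groups. The log2 difference of COMB from CTL was 0.81 (SE 0.551, adjusted p = 0.347), and without the CTL pool of rats 5, 6 and 7 it was 1.67 (adjusted p = 0.0026). COMB exceeded LPS by 1.40 (adjusted p = 0.122) and HPO by 1.49 (adjusted p = 0.0921). Both were called in limma fits of only the 2 groups compared (adjusted p = 0.041 against LPS and 0.0207 against HPO). Those fits called 6.75% and 7.52% of all probe sets. With estimated array weights COMB against HPO was called (1.56, adjusted p = 0.0407), as were 26.4% of all probe sets. Tlr1 exceeded the 20th percentile in the COMB pools. Elsewhere it did so only in that CTL pool and in the LPS pool of rats 5, 7 and 11. Without its COMB pools it would not have passed the filter of 3 arrays, so nothing is concluded from the calls given here. The differences of LPS and HPO from CTL, -0.59 and -0.68, turned to 0.27 and 0.18 without that CTL pool.

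Tlr8, which senses single-stranded RNA in endosomes in humans, was the one receptor called lower. Its intensity was 661, 399 and 482 in COMB pools, 979, 792 and 823 in LPS pools, 1149, 1169 and 1373 in HPO pools and 1358, 1120.4 and 1167 in CTL pools. The COMB pools were lowest and the LPS pools came next without overlap, and the HPO and CTL pools overlapped. COMB averaged 514 ± 134 and CTL 1215 ± 126 (SD, n = 3 pools each), a log2 difference of -1.27 (SE 0.167, adjusted p = 0.000376), or a fold of 0.416.

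The log2 difference of HPO from CTL in Tlr8 was 0.02 (interval -0.35 to 0.38, adjusted p = 0.989). LPS alone differed from CTL by -0.49 (interval -0.86 to -0.13, adjusted p = 0.175). COMB differed from LPS by -0.77 (SE 0.167, adjusted p = 0.0119), a call that was lost without the LPS pool of rats 2, 3 and 6 (-0.68, adjusted p = 0.0565) and in the fit of only these 2 groups (adjusted p = 0.0559). The interaction was -0.79 (interval -1.31 to -0.28, limma adjusted p = 0.194). With COMB rats 2 and 3 left out it was -0.99 and was called (limma adjusted p = 0.0232). Leaving out that pool also raised the share of all probe sets with a called interaction from 0.136% to 2.5%. Of the 6 macrophage genes, 2 were called lower in COMB against CTL and 1 higher, as given above, and their part in this result was not tested.

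Tlr7, the other receptor of single-stranded RNA, was called in no comparison. It had 322, 365 and 404 in COMB pools, 418, 378 and 401 in LPS pools, 474, 434 and 399.5 in HPO pools and 401, 401 and 487 in CTL pools. Every pair of groups compared overlapped. The log2 difference of COMB from CTL was -0.24 (interval -0.49 to 0.01, adjusted p = 0.177), and that of COMB from HPO was -0.26 (adjusted p = 0.156).

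Myd88, the adaptor, was higher in COMB than in LPS or HPO by a small step. It had 1147, 1125 and 1207 in COMB pools, 890.2, 979.6 and 829 in LPS pools, 898, 797 and 969.8 in HPO pools and 936, 1045 and 873 in CTL pools. The COMB pools lay above all others, and the LPS, HPO and CTL pools overlapped. COMB exceeded LPS by 0.37 (SE 0.106, adjusted p = 0.0431), HPO by 0.39 (adjusted p = 0.0279) and CTL by 0.29 (adjusted p = 0.0795). The call against LPS was lost without any 1 COMB or LPS pool (adjusted p 0.0515 to 0.149), and that against HPO was lost when COMB rats 10 and 11, COMB rats 12, 13 and 14, HPO rats 7, 8 and 9 or HPO rats 2, 4 and 11 were left out (adjusted p 0.0529 to 0.101). In fits of only the 2 groups compared neither was called (adjusted p = 0.0645 against LPS and 0.0963 against HPO). With arrays centred on their medians the difference from LPS was 0.33 and was not called (limma, adjusted p = 0.0767). Against CTL, Myd88 was called after quantile normalization (adjusted p = 0.0419), with a trended prior (0.0485), with beta-actin scaling (0.0219) and with array weights (0.0172). Beta-actin scaling moved the median of all probe sets from -0.04 to 0.12, and array weights called 28.4% of them, against 19.1%.

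**Figure D4:**
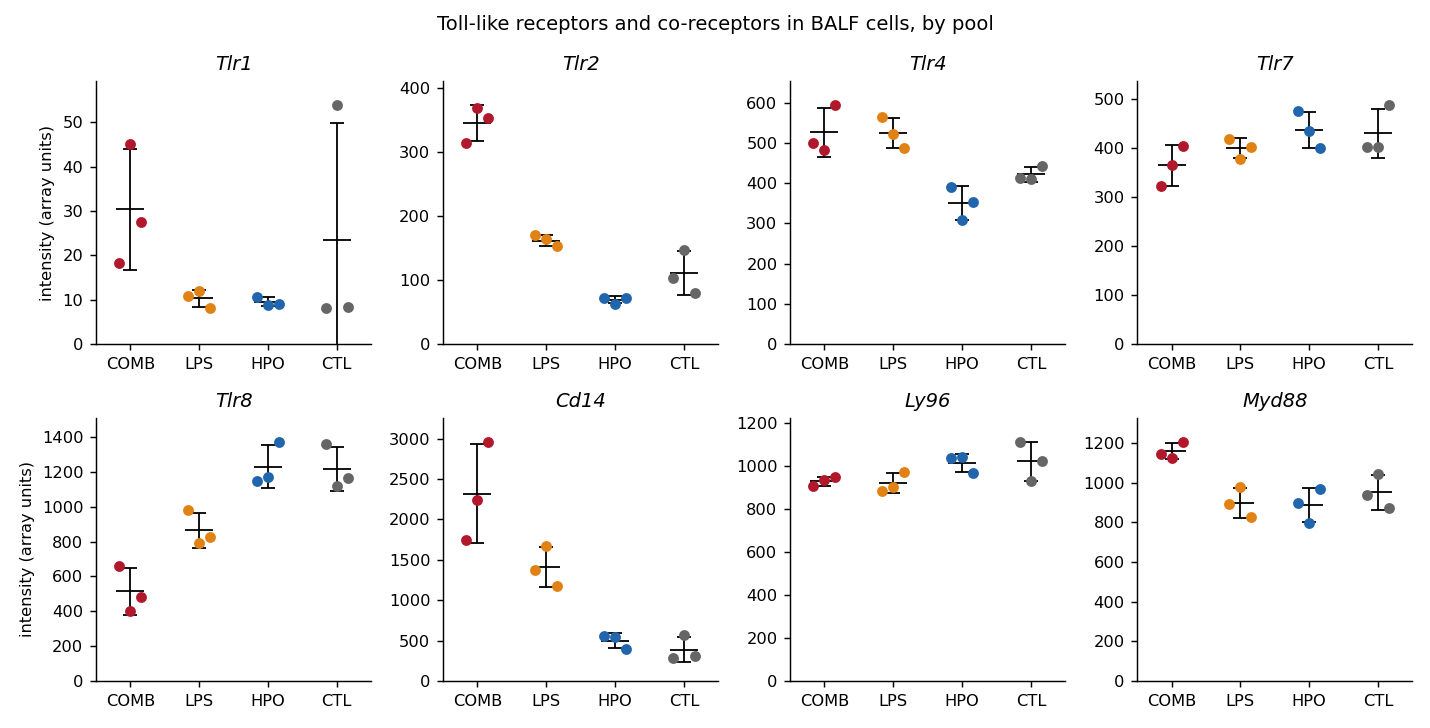
Intensity (array units, y axis from 0) of the 8 genes in each pool of COMB, LPS, HPO and CTL; each point is 1 pool, and the black bars are the mean and SD of 3 pools, the Tlr1 bar in CTL being cut at 0. The COMB pools of Tlr2 lie at 315 to 369, above all others, and those of Tlr8 at 399 to 661, below all others.

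Over the 12 arrays Tlr2 and Cd14 moved together and Tlr8 moved against both. Pearson's r of the log2 values was 0.873 for Tlr2 with Cd14, and -0.904 for Tlr8 with Tlr2 and also for Tlr8 with Cd14. Tlr4 had r = 0.793 with Tlr2 and 0.755 with Cd14. These are descriptions over 12 arrays that share the 4 group means. The genes most like Tlr2 among 12852 were Cxcl1, a neutrophil chemokine (r = 0.983), Mthfd2l, a mitochondrial enzyme of folate metabolism (0.979), and Il1a, which encodes the cytokine interleukin-1 alpha (0.977). With the group means taken off, their r with Tlr2 was 0.853, 0.691 and 0.611.

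The nearest genes differed between the receptors. For Cd14 they were RT1-S3, a class I gene of the major histocompatibility complex (r = 0.977, and 0.813 within groups), Slfn5, a Schlafen family gene (0.976, and 0.849 within groups), and Cflar, an inhibitor of caspase-8 activation (0.971, and 0.742 within groups). For Tlr8 they were the adaptor Shc1 (0.985, and 0.886 within groups), Svil, which encodes an actin-binding protein (0.975, and 0.872), and the thyroid hormone receptor Thrb (0.975, and 0.77). For Tlr4 the nearest gene was the chemokine Ccl9 (0.955, and 0.914 within groups). For Tlr1 they included Csrnp1 and Zfp36, an mRNA decay factor (0.967 and 0.964).

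The genes around the receptors in the pathway were counted from lists of known parts. Of 9 genes of ligand transfer and receptor folding, 2 were called higher in COMB against CTL, Lbp (LPS-binding protein) and Hsp90b1 (a chaperone of Toll-like receptors), and 1 lower, Cd36, a scavenger receptor that assists TLR2. Over all probe sets 8.84% were called higher and 10.2% lower, and the median of the 9 genes was -0.03, against -0.04 over all probe sets. Hsp90b1 was higher after LPS than after both exposures: it had 1909, 1760 and 1704 in COMB pools, 2558, 2787 and 2811 in LPS pools, 1106, 976 and 989 in HPO pools and 1420.3, 1456 and 1435 in CTL pools. No group overlapped with another, and the log2 difference was 0.92 in LPS against CTL (adjusted p = 0.000606) and -0.60 in COMB against LPS (adjusted p = 0.00188). Cd180, a relative of the Toll-like receptors that lacks their signalling domain, was called lower in LPS against CTL (-1.13 on the log2 scale, adjusted p = 0.0365), with 40.7, 49.9 and 59.7 in LPS pools against 99.8, 117 and 113 in CTL pools.

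Of 16 adaptors and kinases below the receptors, 2 were called higher in COMB against CTL, beside 8.84% of all probe sets, and 1 lower, beside 10.2%. Irak2 (0.99 on the log2 scale, adjusted p = 0.0194) and Traf3 (0.59, adjusted p = 0.0178) were higher, and Tab3, a partner of the kinase TAK1, was lower (-0.95, adjusted p = 0.000744). Their median was 0.03, and that of all probe sets tested was -0.04. In LPS against CTL only Tab3 was called (-0.71, adjusted p = 0.0279).

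Of 9 transcription factors, 6 were called higher in COMB against CTL, where 8.84% of all probe sets were, and none lower. Their median was 0.38, against -0.04 over all probe sets tested, and the called ones were Irf7 (2.25), Nfkb2 (1.08), Relb (1.06), Jun (0.68), Nfkb1 (0.38) and Irf3 (0.33). Irf7, a factor of the interferon response, had 1279.6, 1264 and 1969 in COMB pools, 1395, 1269.7 and 1089 in LPS pools, 492, 180 and 233 in HPO pools and 142, 1251 and 166 in CTL pools, the value of 1251 coming from the CTL pool of rats 5, 6 and 7. In LPS against CTL Irf7 was not called (2.01, adjusted p = 0.155), nor was any other of the 9, of which limma gave 2 at an unadjusted p under 0.05, as it did 14.8% of all probe sets.

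Of 16 negative regulators, 8 were called higher in COMB against CTL, where 8.84% of all probe sets were, and 1 lower, where 10.2% were. Their median was 0.80, against -0.04 over all probe sets tested. They included the ribonuclease gene Zc3h12a (2.44), the receptor Sigirr (1.31), the NF-κB inhibitor Nfkbia (1.28) and Irak3 (1.24), a kinase-like brake on receptor signalling, and the lower one was Il1rl1 (-0.52). Sigirr was near the low end of the arrays, with 24.6, 37.3 and 33.1 in COMB pools and 9.92, 14 and 12.3 in CTL pools. The 90th percentile of the genes of other organs was 27.1. Zc3h12a had 331, 272 and 330.2 in COMB pools, 115, 108 and 81.6 in LPS pools, 45.5, 47 and 53.8 in HPO pools and 51.9, 65.7 and 52.2 in CTL pools. It was the one gene of the 4 lists whose interaction was called (1.82, SE 0.208, adjusted p = 0.0135), as was that of Tlr2. In LPS against CTL 1 of the 16 was higher, Zc3h12a (0.83, adjusted p = 0.0196). In HPO against CTL none of the 50 genes of the 4 lists was called by limma, and 3 had an unadjusted p under 0.05, as did 9.71% of all probe sets. The medians of the neutrophil, monocyte, T and NK cell, B cell and epithelial sums were also highest in COMB, and their part in these counts was not tested.

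**Figure D5:**
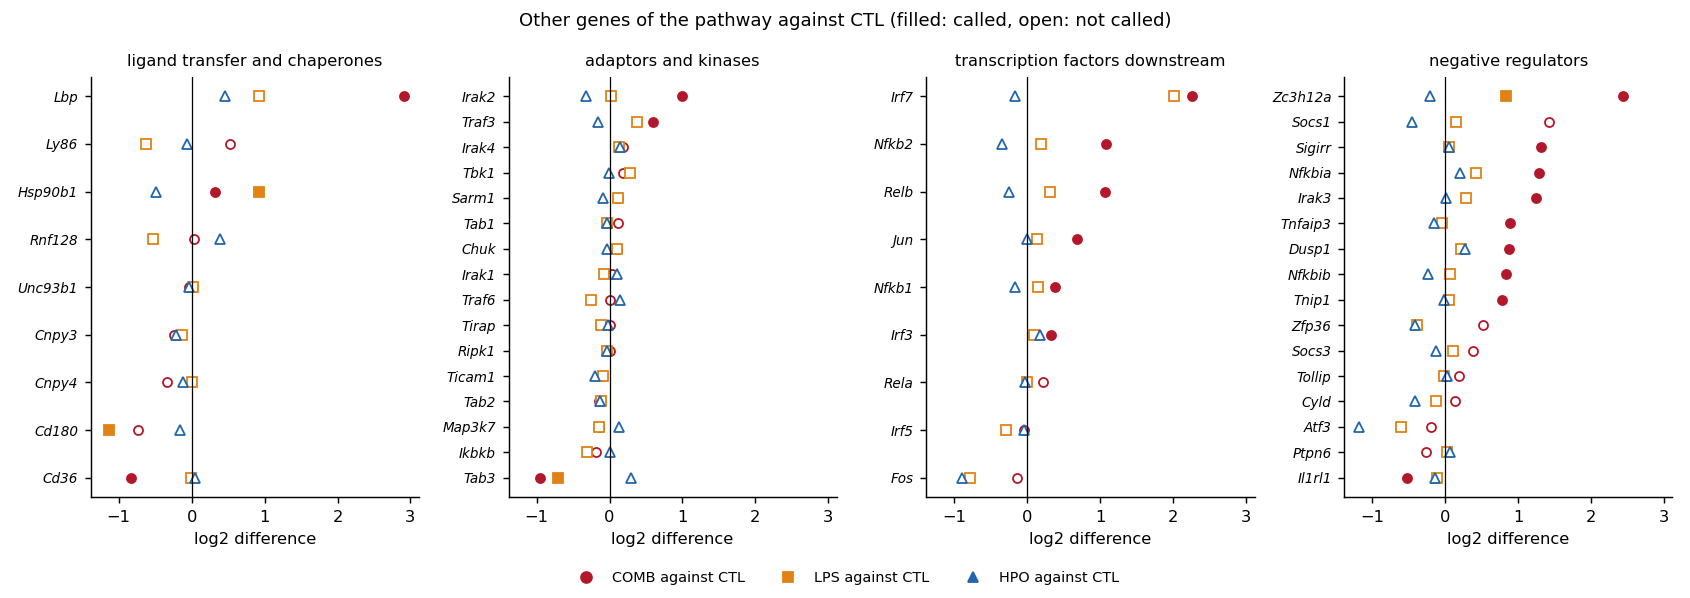
Differences from CTL in log2(intensity + 1) (x axis) of the genes of 4 pathway lists in COMB (circles), LPS (squares) and HPO (triangles); filled marks were called and open marks were not. Filled circles are 6 of 9 transcription factors on the higher side, and 8 of 16 negative regulators on the higher side with 1 on the lower.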

How the data were processed

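RNA of BALF cells was hybridised by the authors to Affymetrix Rat Genome 230 2.0 arrays, 1 pool per array. What the authors deposited was 1 intensity per probe set and array, not log-transformed, for 31099 probe sets. The normalization behind them is not given in the sources used here, and the paper's filter on low signals was not seen in the table. Depth does not apply to arrays; the number of pools, 3 per group, limits the precision.

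Genes were named from the platform annotation: 20832 probe sets name 1 gene, 436 several and 9831 none. The 57 control probe sets were left out, as were probe sets that were not above the 20th percentile of their array on at least 3 arrays. The values were taken as log2(value + 1), so that fold changes of dim probe sets are understated, and fitted with limma 3.58.1 in R 4.3.3, with 1 mean per group, all 12 arrays and 8 residual degrees of freedom. Tests were two-sided, with Benjamini-Hochberg adjustment over the 25692 probe sets left, and the script was tested on simulated data. All 8 genes passed the filter, Tlr1 only with its COMB pools counted. The genes described, the pathway and marker lists and the tests were chosen with earlier results of these data known. The 3 genes nearest each receptor were those with the highest Pearson's r over 12 arrays. Groups and pools were taken from the labels, which give the rats of each pool. Rat numbers recur between groups but stand for different animals, so no block was used. Alternatives covered scaling, pseudocount, filter, weights, test and the pools left out one at a time. The t-test among them was unpaired, on the log2 values of the 2 groups compared. For the arrays the paper names a paired t-test, which was not run.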

Additional observations from a re-analysis of the deposited data

Results flagged for a closer look

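For Tlr2 the interaction of LPS and hypoxia was called, as it was for 0.136% of all probe sets. It was 1.72 on the log2 scale (limma, adjusted p = 0.0261). All 3 COMB pools were above all 3 LPS pools. All 3 HPO pools were below all 3 CTL pools, a difference that was not called (limma, adjusted p = 0.225). How many of all probe sets separate in this way was not counted. The interaction was not called by limma with beta-actin scaling (adjusted p = 0.0605), with a block by shared rat numbers (0.0593) or without some single pools (0.0673 to 0.0953).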

How the results depend on the processing

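Tlr2, Cd14 and Tlr8 kept their calls in COMB against CTL under every alternative except the unpaired t-test after adjustment (adjusted p 0.0599 to 0.0767). Of 1074 values of single genes under an alternative, 985 kept their direction and side of the threshold, 38 lost a call, 26 gained one and 25 changed sign. Each gene had 1 probe set, so averaging probe sets could not be run as an alternative.

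In COMB against CTL, 5 of the 8 genes were called with beta-actin scaling and 5 with estimated array weights, against 3. By the unpaired t-test 0 were called after adjustment and 5 without it. Over all probe sets these settings called 20.3%, 28.4%, 2.12% and 26% in that order, against 19.1%. In LPS against CTL these were 4 with array weights, 0 and 3 by the t-test after and without adjustment, and 1 to 2 with 1 pool left out, against 1; array weights called 14.4% of all probe sets and the t-test 0.00389% and 17.2%, against 2.04%. In HPO against CTL 1 was called with array weights, against 0, where these called 13.9% of all probe sets, against 0.035%. In COMB against LPS 1 was called at 2-fold or more (2.96% of all probe sets, against 11.9%), 0 by the adjusted t-test (0.0545%) and 1 to 2 with 1 pool left out, against 3. In COMB against HPO 3 were called at 2-fold or more (3.65%, against 15.6%) and 1 by the adjusted t-test (0.0662%), against 5. For the interaction 0 were called with beta-actin scaling (0.0272% of all probe sets, against 0.136%) and 2 with array weights (8.24%). With 1 pool left out 0 to 2 were called (0.00778% to 2.5%), against 1. With a replicate block that paired pools of different groups by shared rat numbers, 0 were called: Tlr2 stayed at 1.72 with an adjusted p of 0.0593. The block rests on a number only, since 5 of 18 pairs matched by it correlated above 0.1 in their deviations from the group means, against 9 of 36 pairs not matched.

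The changes of sign were in values that were not called. With beta-actin scaling, which moved the median of all probe sets to 0.12 in COMB against CTL, 0.10 in LPS against CTL and 0.12 in HPO against CTL, Ly96 was 0.04 in COMB against CTL, 0.12 in HPO against CTL and -0.04 in the interaction, Myd88 was 0.02 in HPO and 0.03 in LPS against CTL, and Tlr7 was 0.01 in LPS against CTL. With arrays centred on their medians, Ly96 was -0.02 in COMB against LPS, and Tlr7 and Tlr8 were -0.01 and -0.02 in HPO against CTL. With array weights, Ly96 and Tlr8 were 0.02 and -0.03 in HPO against CTL. With 1 pool left out, Ly96 lay between -0.01 and 0.06 in COMB against LPS, -0.07 and 0.06 in HPO against CTL and -0.04 and 0.09 in the interaction. In HPO against CTL, Tlr1 lay between -1.12 and 0.18, Tlr7 between -0.04 and 0.12 and Tlr8 between -0.06 and 0.10, and in LPS against CTL Tlr1 lay between -1.03 and 0.27. With beta-actin scaling 76.3% of the probe sets called in COMB against CTL were higher, against 46.4%. Over all probe sets the interaction was called for 35, against 83 after quantile normalization, 2116 with array weights and 2 to 643 with 1 pool left out. The cause of these changes was not tested.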
